A study of Erysimum cheiri and Matthiola incana and Raphanus sativus with 44 samples.

Results

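The 150 nuclear loci described here had a high median transcript level in the petals of all 10 Brassicaceae species of the series. They were chosen by level alone. The median FPKM (fragments on a transcript, scaled by its length and by the mapped fragments of the library, so a level per length) was taken over the libraries of each species, the lowest of the 10 species medians was kept for each locus, and the 150 loci with the highest such value were taken out of 33852 nuclear loci, which is 0.443%. Aubrieta entered with 1 library, and library 2 of Erysimum form P was left out of its species median. The level itself is therefore not a result, and its order within and between species is a description with no test. Of the 33852 loci, 2191 had a median above 0 in every species. Of the 150 loci, 138 were above 0 in every library, and Raphanus LP2 had the most listed at 0, with 4. A species median can be high where a form is at 0, as for the metallothionein MT2A in Orychophragmus form P. The limit lay at 33.6 FPKM: J8, a plastid co-chaperone (34.5), KNAT3, a homeobox regulator (34.3), AAE3, which activates oxalate (33.7), and a small subunit of respiratory complex I (33.6) stood just inside. The small Rubisco subunit RBCS1A (32.7) and 3 loci with no name held here (33.6, 33.1 and 32.6) stood just outside.

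A petal is a short-lived organ that opens by cell expansion. In Arabidopsis its identity rests on MADS-box proteins of the B class (AP3 and PI) acting with AP1 and SEPALLATA proteins. Expansion is driven by water entering the vacuole, which needs proton pumps that energise the vacuolar and plasma membranes, aquaporins that let water pass, and new membrane and wall, while mitochondria supply the ATP and the ubiquitin and proteasome system and vacuolar proteases turn proteins over.

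Petals came from half-open flowers of greenhouse plants, and polyadenylated RNA was made into directional libraries. The series holds 22 forms with 2 libraries each, described as biological replicates with no plant named, so p-values here measure the spread between these libraries. Forms are given by the code in the sample titles, because colour and organism labels go against the titles in part. Forms with the colour label in brackets were Aubrieta x cultorum PI (pink), Brassica oleracea Y (yellow), Eruca sativa Y (brownness), Erysimum cheiri P (yellow), O (pink), Y (yellow) and B (orange), Iberis amara P (pink) and PI (violet), and Lobularia maritima W (white) and P (violet). The others were Malcolmia maritima LP (violet) and P (white-violet), Matthiola incana W (white), LP (modena), RB (pink) and DP (lavender), Orychophragmus violaceus W (white-violet) and P (violet), and Raphanus sativus W (violet), LP (white-violet) and DP (violet). Eruca Y carries the organism label of Erysimum and Erysimum Y that of Eruca. Reads of every species were counted on Arabidopsis loci and each species has its own table, so a species level also carries how well its reads matched Arabidopsis, and a level set across species is not on one common scale.

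Over the 43 libraries counted (the pair of Aubrieta columns is identical and counts as 1), total FPKM ran from 207697 to 2816590 and the number of loci above 0 from 4910 to 14198. Nuclear loci held 25.7% (Raphanus W1) to 99.9% of it. Read depth is not given, but loci above 0 in a single library of their species show what few reads are worth: their median ran from 0.612 FPKM in Malcolmia LP1 to 13.8 FPKM in Raphanus W2. In Raphanus 41 of the 150 loci had a median under 10 times that level, against 0 in Malcolmia, so the lower ranks are less precise there.

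Library 2 of Erysimum form P stood apart from the other 7 Erysimum libraries. Over the 150 loci its Spearman correlation with them was 0.185 to 0.253, while they reached 0.803 to 0.990 among themselves. It reached 0.802 and 0.828 with the 2 libraries of Orychophragmus form W, and 0.653 and 0.617 with those of form P. Over 2041 other loci the picture was the same, with 0.804 for Orychophragmus W2 against 0.408 for the nearest Erysimum library. Of the 150 loci, 69 lay above and 40 below the whole range of the other Erysimum libraries in it, 17 of them over 4 times higher than the highest. Taking all Erysimum columns into the rule gave the same 150 loci.

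Of the petal markers, AP3, PI, AP1 and SEP3 were above 0 in 43 of 43 libraries. These 4 are members, chosen for a high level in every species, so they are no check of the tissue. SEP1 and SEP2, which are not members, were above 0 in 42 and 36 libraries. The median of SEP1 was 0 in Aubrieta and that of SEP2 was 0 in Matthiola. The tapetum genes A9 and ATA7 were listed at 0 in all 43 libraries, and the carpel and ovule genes AG, SHP1, SHP2 and STK were above 0 in 8, 9, 4 and 4. The pollen gene VGD1 was above 0 in 36 libraries and PPME1 in 21. Their sum was highest in Raphanus W (4595 and 4194 FPKM), against 791 and 807 in LP and 78.6 and 142 in DP. It was 713 and 634 in Orychophragmus W against 30.3 and 0 in P. Of the green tissue genes, RCA and RBCS1A were above 0 in 43 libraries, LHCA1 in 39 and LHCB1.3 in 38. The sum of these green tissue genes differed within some forms. It was 8320 FPKM in Lobularia W2 against 1021 in W1, and 6291 in Erysimum O2 against 742 in O1. These are bulk petals, in which fewer cells of a type and less RNA per cell cannot be told apart.

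By role, the 150 loci held 20 of ubiquitin and proteolysis, 19 of mitochondrial respiration, 14 of carbon and amino acid metabolism, 12 of membrane traffic, 11 of signalling and 9 proton pump subunits. Smaller groups were 8 redox enzymes, 8 of translation, 7 plastid proteins, 6 of nucleotide sugars and the cell wall, 5 aquaporins, 4 of chromatin and transcription, 4 floral identity factors, 3 of the cytoskeleton and 2 metallothioneins. A further 2 had other roles, 1 was the chaperone HSC70-1, 1 was 18S ribosomal RNA and 12 had no name held here. CCD1 and OMT1, named in pigment pathways, are left aside. Names for 49 loci came from general gene lists, 4 from marker lists, and 85 were added after the members had been seen. The shares below therefore use the general lists alone, which were also chosen with earlier results of these data known. They are a description and not a test. Of 562 listed loci 49 were members, or 8.72%. The lists were not filled evenly. Of 20 loci for mitochondria and proton pumps 8 were members (40%), 5 of 8 vacuolar ATPase subunits (62.5%), 9 of 24 for ubiquitin and proteolysis (37.5%), 5 of 17 aquaporins (29.4%) and 2 of 5 metallothioneins (40%). Of 223 ribosomal protein loci 6 were members (2.69%), and none of 33 cell wall and surface, 9 cold-induced and 14 defence loci. A locus with a median of 0 in any species could not be a member. Of these 4 lists only 55, 5, 0 and 1 loci had a median above 0 in every species, against 17 of 20 for mitochondria and proton pumps. Their low shares are therefore not a measure of their level in petals.

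**Figure D1:**
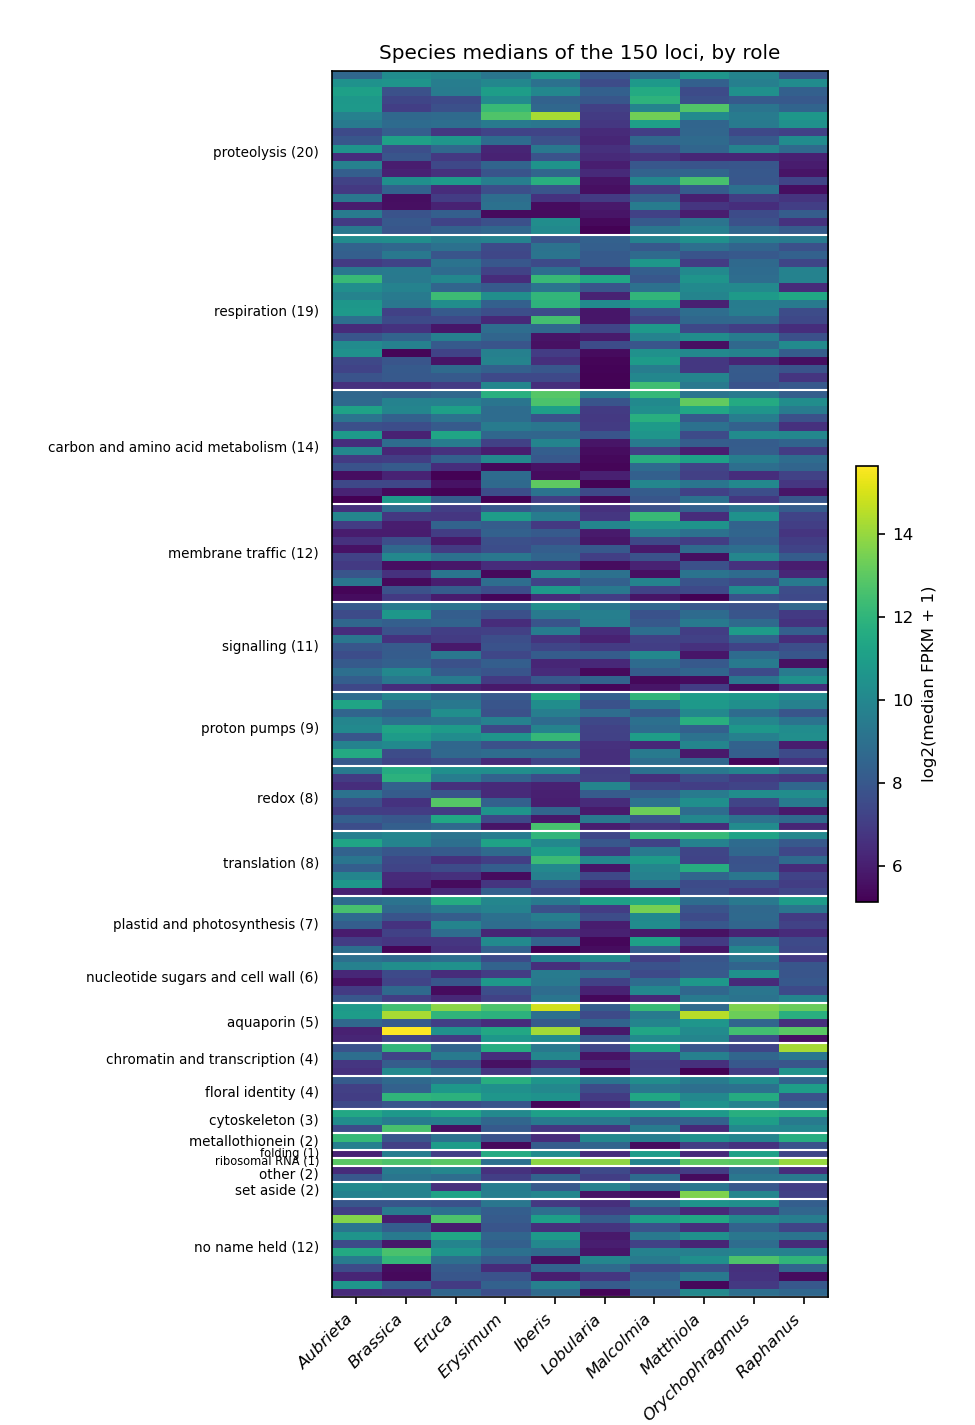
Median FPKM of the 150 loci (rows, grouped by role) in each of the 10 species (columns), as log2(median FPKM + 1). Yellow is high and dark blue low; the Lobularia column is the darkest, with a median of 122 FPKM against 482 in Malcolmia.

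By the median of their SDs, the proton pumps were the most even group after the cytoskeleton, which held only 3 loci (SD 0.72 to 2.19). The lowest species median of VHA-C2, a membrane subunit of the vacuolar ATPase, was 278 FPKM in Erysimum, and its highest 4125 FPKM in Malcolmia. AVP1, the vacuolar pyrophosphatase that pumps protons into the vacuole, ran from 214 FPKM in Lobularia to 2428 FPKM in Aubrieta, and AHA1, the plasma membrane proton ATPase, from 167 FPKM in Lobularia to 3413 FPKM in Matthiola. DET3, the C subunit of the vacuolar ATPase, had a lowest median of 209. Evenness was the SD over the 10 species of log2(FPKM + 1), with the median of the 150 loci taken off in each species. The median SD of the 9 pump loci was 1.07, against 1.35 over the 150 loci and 1.45 over the 2191 loci seen in every species. The rule set a floor under the species medians of the 150, so the 2191 loci are not a like comparison. VHA-C1, VHA-C2 and VHA-C5 encode nearly identical proteins, so reads of another species could be split between them in any way.

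The aquaporins were among the most uneven. PIP1;2, a water channel of the plasma membrane, had medians from 291 FPKM in Lobularia to 31304 FPKM in Iberis, and PIP2;7 from 181 FPKM in Lobularia to 23172 FPKM in Matthiola. TIP1;2, a water channel of the vacuole membrane, had the widest range of all, from 54.9 FPKM in Lobularia to 51112 FPKM in Brassica, a ratio of 932, and its SD of 2.92 was the highest of the 150. TIP1;1, its close relative, ran from 47.1 FPKM in Raphanus to 1628 FPKM in Erysimum. The species with the highest median was thus not the same for PIP2;7, PIP1;2 and TIP1;2, and reads may be split among the members of this family.

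Of the 19 loci for respiration, 18 were named after the members had been seen. They held 3 adjacent copies of the ATP synthase beta subunit (AT5G08670, AT5G08680 and AT5G08690, with lowest medians of 102, 83.7 and 238 FPKM, near-identical and so uncertain as single genes), the gamma and epsilon subunits, 6 subunits of complex I and 1 each of complexes II and III. MAB1, the beta subunit of pyruvate dehydrogenase that feeds the cycle, ran only from 175 FPKM in Erysimum to 537 FPKM in Iberis and had an SD of 0.68, and OGDH E1, an enzyme of the citric acid cycle, had a lowest median of 164. AAC1, which exchanges ADP for ATP across the inner membrane, had 52.4 FPKM in Eruca as its lowest median and 1755 FPKM in Malcolmia as its highest.

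Of the 20 proteolysis loci, 4 were polyubiquitin genes, 3 encode E2 conjugating enzymes (UBC9, UBC10 and UBC36), 2 are ATPases of the 19S proteasome (RPT3 and RPT2A) and 3 are proteases of the vacuolar system (APA1, RD21A and AALP). RPT3 ranked highest at 237 FPKM in Raphanus, followed by APA1, an aspartic protease, at 190.3 FPKM in Lobularia and UBQ11 at 184 FPKM in Matthiola. UBQ4 and UBQ14 varied little between species (SD 0.88 and 0.86), whereas UBC10 ranged from 121 FPKM in Lobularia to 19911 FPKM in Iberis. Polyubiquitin genes repeat one coding unit, so their single values are uncertain.

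Carbon and amino acid metabolism held GAPC1 and GAPC2, cytosolic glyceraldehyde-3-phosphate dehydrogenases of glycolysis, with lowest medians of 116 FPKM in Lobularia and 303 FPKM in Raphanus. ATMS1, which makes methionine, ran from 226 FPKM in Lobularia to 8965 FPKM in Matthiola, and SAHH1, which clears the by-product of methylation in the same cycle, from 35.2 FPKM in Lobularia to 8476 FPKM in Iberis. KAT2, a thiolase of peroxisomal fatty acid breakdown, had 121 FPKM in Lobularia and 2595 FPKM in Matthiola. SUS1, which cleaves sucrose, lay between 40.0 FPKM in Lobularia and 3335 FPKM in Malcolmia. DAHP synthase and EMB1144 (chorismate synthase), at the entry and the end of the shikimate pathway to aromatic amino acids, were also members, at 97.8 and 35.2.

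Translation gave few loci: the elongation factor EF1A4 (163 FPKM in Lobularia), ELF5A-2 (149 FPKM in Malcolmia) and 6 ribosomal proteins, led by RPL19 of the large subunit (119.9 FPKM in Lobularia) and RPS25 of the small subunit (97.1 FPKM in Eruca). 18S ribosomal RNA ran from 490.3 FPKM in Erysimum to 16523 FPKM in Raphanus. With it, the 150 loci held 9.54% to 65.0% of the nuclear FPKM of a library, and without it 8.42% to 33.3%.

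All 4 floral identity members were transcription factors of the petal programme. AP3 had the highest lowest median of them, 280.4 FPKM in Aubrieta, and reached 3336 FPKM in Erysimum. PI, its partner, ran from 123 FPKM in Lobularia to 4108 FPKM in Brassica, SEP3 from 137 FPKM in Aubrieta to 2089 FPKM in Raphanus, and AP1 from 38.0 FPKM in Iberis to 1372 FPKM in Matthiola. The orders differ: Brassica had 4108 FPKM of PI and 424 of AP3, whereas Erysimum had 1594 and 3336.

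ACT2, a vegetative actin, led the 150 with 1084 FPKM in Erysimum and 3390.1 in Orychophragmus, a ratio of 3.13, and had an SD of 0.72. ACT8, whose protein is nearly the same, had 318 FPKM in Malcolmia as its lowest median, while the beta tubulin TUB4 ran from 45.4 FPKM in Eruca to 6279 FPKM in Brassica (SD 2.19). Membrane traffic held both clathrin heavy chains, and CHC2 had the smallest SD of the 150 (0.64), with RHD3, which shapes the endoplasmic reticulum, at 0.65 and UBP12, a ubiquitin protease, at 0.66. Signalling held PP2A-4, a protein phosphatase catalytic subunit (212 FPKM in Orychophragmus), and the calmodulins CAM2 and CAM6 (69.4 and 85.7), whose proteins are almost identical. Histone H3.3 had a low SD of 0.91. CESA3, a cellulose synthase of primary walls, ran from 76.2 FPKM in Aubrieta to 1361 FPKM in Orychophragmus.

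The redox group was uneven, with a median SD of 1.74. MDAR1, which recycles ascorbate, had a lowest median of 133 FPKM in Lobularia, CSD1, a superoxide dismutase, 64.1 FPKM in Iberis, and CAT3, a catalase, 51.8 FPKM in Erysimum and a highest of 6139 FPKM in Iberis. MT2B, a metal-binding metallothionein, ran from 86.8 FPKM in Iberis to 4537 FPKM in Aubrieta, and MT2A from 41.1 FPKM in Erysimum to 1961 FPKM in Eruca. Of the plastid loci, RCA, which activates Rubisco, had the highest lowest median (454 FPKM in Matthiola) and reached 3106 FPKM in Malcolmia, and PSBR and PSBO1 belong to the oxygen-evolving part of photosystem II.

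Species differed in which of the 150 loci they held highest. Lobularia had the lowest median for 52 loci, and its median over the 150 was the lowest (122 FPKM). Its whole table was low, with 725 loci at or above the limit against 1533 to 2926 in the other species. By rank within its own table all 150 were in the top 1000 in Lobularia, against 124 to 139 elsewhere. Malcolmia had the highest median for 30 loci and the highest median over the 150 (482 FPKM). The Spearman correlation between species medians over the 150 loci, given as a description since each pair shares the Arabidopsis reference and the choice of loci, was highest for Erysimum and Malcolmia (0.675). Brassica and Eruca followed with 0.531, Eruca and Raphanus with 0.521 and Brassica and Raphanus with 0.483. Erysimum and Lobularia were at the other end with 0.0668. Between single libraries the median was 0.936 within a form (21 pairs), 0.853 between forms of a species (76 pairs) and 0.272 between species (806 pairs). Of the 7 species with several forms, Orychophragmus had the lowest median between forms (0.533), with 0.524 to 0.564 between W and P libraries against 0.941 and 0.967 within them.

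**Figure D2:**
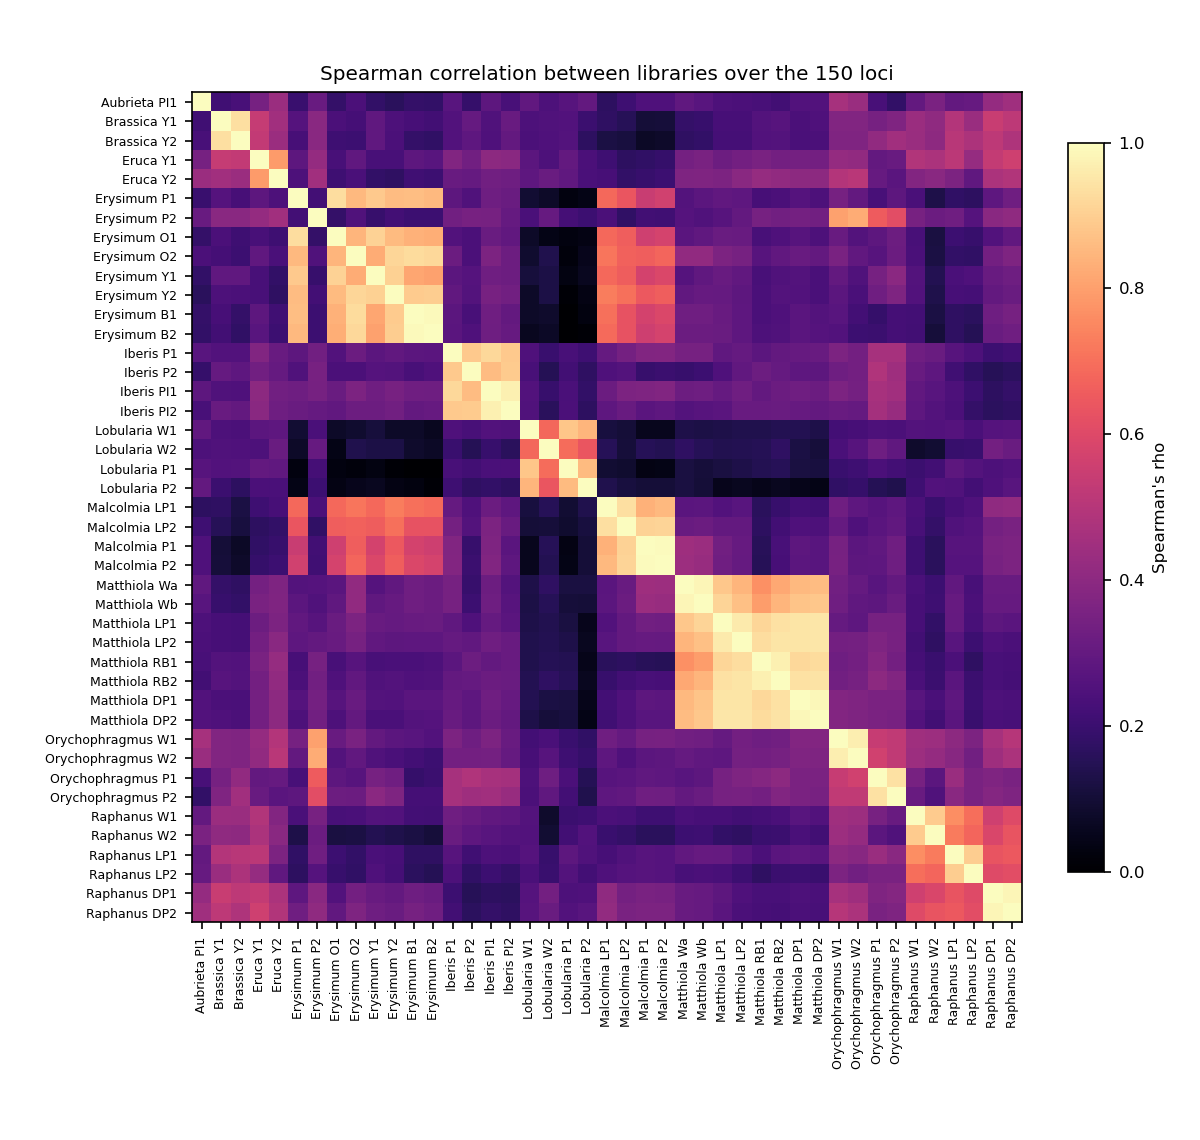
Spearman correlation over the 150 loci between the 43 libraries, ordered by species and form. Blocks of high correlation follow the species, except library 2 of Erysimum form P, which is dark (low) against its own species (0.185 to 0.253) and bright (high) against Orychophragmus W (0.802 and 0.828).

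Whether forms of a species differ in these loci was asked in the 7 species with several forms. The contrast between forms was not used to choose the loci. The share called among loci at or above the limit of 33.6 FPKM is given beside the share of all loci. The 150 loci had a median of 376 FPKM in Matthiola, well above that limit, so this set is not matched to them in level. For each species a limma moderated F test on log2(FPKM + 1) was run over all loci whose mean reached 1 FPKM in some form, and a locus was called at a Benjamini-Hochberg adjusted p under 0.05. Of the 150 loci, 60 were called in Matthiola (40%) against 4.06% of all tested loci and 16.7% of tested loci with a species median at or above the 33.6 FPKM limit. In Raphanus 50 were called (33.3%) against 11.5% and 24.6%, in Orychophragmus 47 (31.3%) against 4.94% and 14.7%, and in Malcolmia 33 (22%) against 4.09% and 11.7%. None was called in Erysimum (0.0338% of all tested loci and 0.0348% of those at or above the limit), Iberis (0% of both) or Lobularia (0% of both), where limma gave 4, 11 and 2 of the 150 at an unadjusted p under 0.05.

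The libraries of the highest and the lowest form did not overlap for 144 of the 150 loci in Matthiola (96%, against 60.8% of all tested loci), 135 in Raphanus (90% against 50.8%), 129 in Malcolmia (86% against 63.5%) and 119 in Orychophragmus (79.3% against 45.6%). The numbers were 107 in Erysimum (71.3% against 62.6%), 44 in Lobularia (29.3% against 19.6%) and 42 in Iberis (28% against 25.1%). With more forms there is more room for a pair that does not overlap, so these shares are read against their own background only.

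**Figure D3:**
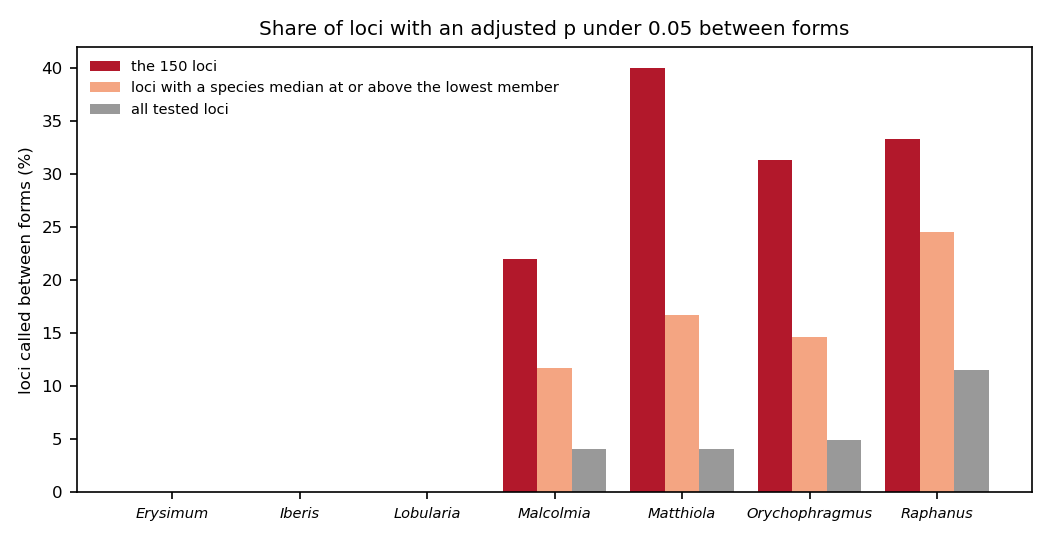
Percentage of loci called between forms (y axis, limma adjusted p under 0.05) in 7 species, as bars for the 150 loci, for tested loci with a species median at or above 33.6 FPKM, and for all tested loci. The bar of the 150 loci is the tallest in Matthiola (40%), Raphanus (33.3%), Orychophragmus (31.3%) and Malcolmia (22%), and is 0 in the other 3.

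In Raphanus, 4 of 5 aquaporins, 4 polyubiquitin genes and the B-class factor PI were called with form DP highest on the deposited values. The catalase CAT3 and the vacuolar pyrophosphatase AVP1 were called with W highest. Some of these calls were lost under other scalings of the libraries, as given below. PIP2;1 held 813 and 580.4 FPKM in the DP libraries, 89.9 and 94.2 in LP and 15.1 and 15.0 in W, so the 3 forms did not overlap and W was close to the 13.8 FPKM given above for few reads. Its DP level was higher than W by 5.43 log2 units (limma adjusted p = 0.0152). PIP2;7 held 41839 and 33179.6 in DP, 3873 and 3024 in LP and 3014 and 1683 in W, DP again standing above the others (4.05 log2 units over W, adjusted p = 0.0192). PIP1;2 and TIP1;2 were called in the same direction, and TIP1;1, with 153 and 125 in DP and 56.7 and 37.6 in W, was not called.

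Ubiquitin genes gave another pattern in Raphanus, with LP lowest. UBQ14 held 6545 and 6172 FPKM in DP, 1078 and 1705 in W and 408 and 213 in LP (4.42 log2 units between DP and LP, adjusted p = 0.0246). UBQ11, UBQ4 and UBQ10 were called with the same highest and lowest form. The protease APA1 also stood lowest in LP, with 554 and 508 against 3354 and 3134 in DP (2.61 log2 units, adjusted p = 0.0121). Among the floral factors, PI held 903 and 749 in DP, 257 and 178 in LP and 90.6 and 126 in W (adjusted p = 0.0292), and AP1 and SEP3 were also called with DP highest. AP3, with 553 and 819 in DP and 349 and 386 in W, was not called.

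Against that direction, CAT3 held 249 and 550.2 FPKM in W, 57.0 and 93.8 in LP and 21.3 and 17.2 in DP (4.20 log2 units, adjusted p = 0.0345). AVP1 held 1271 and 1591 in W, 785 and 918 in LP and 118 and 197 in DP (3.21 log2 units, adjusted p = 0.0249). ATMS1 peaked in the middle form, with 3720.2 and 2985 in LP, 1225 and 1267 in W and 433 and 471 in DP, and none of the 3 forms overlapped (2.88 log2 units between LP and DP, adjusted p = 0.0124). By role, calls on the deposited values are set against 33.3% of the 150 loci and 24.6% of loci at or above the limit. Aquaporins had 4 of 5 called, floral factors 3 of 4, redox enzymes 5 of 8 and nucleotide sugars and the wall 4 of 6. Carbon and amino acid metabolism had 7 of 14 called, proteolysis 7 of 20, respiration 5 of 19 and membrane traffic none of 12. These counts include calls lost under other scalings. The 2 pollen markers were highest in W (4595 and 4194 FPKM against 78.6 and 142 in DP), the carpel and ovule sum was 271 and 49.8 in W, 95.0 and 57.4 in LP and 0 in DP, and the sum of 4 green tissue genes was 701 and 679 in W against 3111 and 3523 in DP; their part in these differences was not tested. Leaving out either DP library took the number of calls from 50 to 26, with the replicate number as a block it was 4, and with no variance trend 11.

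In Orychophragmus, the metallothioneins MT2A and MT2B, the proteases RD21A, APA1 and AALP, SUS1 and KAT2 were called with form W higher, and ATMS1, SAHH1, AHA1 and CESA3 with form P higher. MT2B held 2232 and 1829 FPKM in W and 49.0 and 52.8 in P (5.28 log2 units, limma adjusted p = 0.0144), and MT2A held 219 and 198 in W and was listed at 0 in both P libraries (adjusted p = 0.0240). SUS1 held 1434 and 1389 in W and 118 and 124 in P (3.53 log2 units, adjusted p = 0.0165). The forms did not overlap for any of the 3.

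The cysteine protease RD21A, with 1084 and 1275 in W and 75.2 and 50.2 in P, was higher in W by 4.24 log2 units (adjusted p = 0.0240), and the proteases APA1 and AALP were called the same way. KAT2 held 2672 and 2684 in W and 317 and 419.9 in P (2.87 log2 units, adjusted p = 0.0240). CAT3, whose enzyme removes the peroxide that fatty acid breakdown makes, was at 1699 and 1931 in W and 526 and 649 in P (1.63 log2 units, adjusted p = 0.0292).

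In the other direction, ATMS1 held 4671 and 6275 in P and 1214 and 1276 in W (2.12 log2 units, adjusted p = 0.0248), and SAHH1 held 1753 and 2767 in P and 313 and 255 in W (2.96 log2 units, adjusted p = 0.0265). Both enzymes of the cycle were thus higher in P with no overlap. AHA1 held 1443 and 1539 in P and 516 and 524 in W, and CESA3 held 2155 and 2439 in P and 566 and 560.4 in W, with adjusted p = 0.0251 and 0.0240. The 2 partners of the B class went opposite ways: AP3 held 2023 and 1676 in P and 697 and 741 in W (adjusted p = 0.0319), and PI held 1366 and 1929 in P and 4189 and 4370.2 in W (adjusted p = 0.0432). By role, calls on the deposited values are set against 31.3% of the 150 loci and 14.7% of loci at or above the limit. Metallothioneins had 2 of 2 called, carbon and amino acid metabolism 9 of 14 and nucleotide sugars and the wall 3 of 6. Proteolysis had 5 of 20 called, respiration 4 of 19, and aquaporins and translation none of 5 and 8. Pollen markers summed to 713 and 634 FPKM in W against 30.3 and 0 in P, and their part in these differences was not tested. The calls fell from 47 to 0 without library P1, 9 without W1 and 7 without W2. They fell to 0 with no variance trend and rose to 86 with the replicate number as a block.

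**Figure D4:**
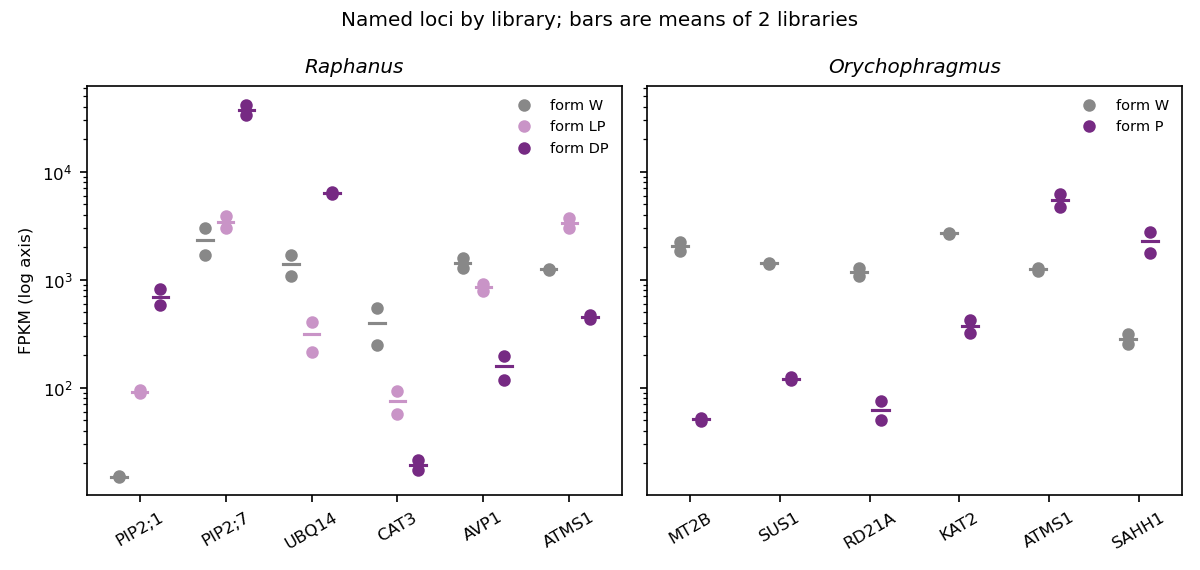
FPKM on a log axis of 6 loci in the 3 forms of Raphanus and 6 loci in the 2 forms of Orychophragmus, with 1 point per library and a bar at the mean of 2. DP stands highest for PIP2;1, PIP2;7 and UBQ14 and lowest for CAT3, AVP1 and ATMS1 in Raphanus, and in Orychophragmus W stands above P for 4 loci and below it for ATMS1 and SAHH1.

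In Matthiola all 5 aquaporins were called, each with form W highest on the deposited values. TIP1;2 held 8086 and 4769 FPKM in W, 997 and 1149 in LP, 1195 and 1287 in RB and 914 and 843 in DP (2.82 log2 units between W and DP, limma adjusted p = 0.00602). TIP1;1 held 6725 and 4093 in W and 922 and 701 in DP (2.70 log2 units, adjusted p = 0.0130), again with W above the rest. Histone H3.3, with 448 and 276 in W and 58.9 and 74.5 in LP, and CAM2, with 348 and 337 in W and 46.8 and 83.9 in RB, had adjusted p = 0.0205 and 0.0365.

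This direction depended on how libraries were scaled. W was the highest form in 44 of the 60 called loci as deposited, in 9 of 31 with quantile scaling, and in 0 of 25 with libraries brought to the same nuclear sum, where W was the lowest form in all 25. The 2 W libraries hold the 2 highest nuclear FPKM sums of the species, and scaling moved the median of all tested loci in W from -0.09 to -0.55 log2 units off the mean of the forms. With the nuclear sum the difference of TIP1;2 was 1.40 log2 units (adjusted p = 0.387). Only 6 of the 60 loci were called with the same highest and lowest form under 4 scalings. These scalings were as deposited, quantile, the same nuclear sum, and the same median of the 150 loci. RB was the highest and W the lowest form in each of the 6 loci. As W was lowest in all 25 calls with the nuclear sum, no other form could be lowest in a call that held. CHC1, the clathrin heavy chain of coated vesicles, held 405 and 405 in RB and 138 and 142 in W (1.53 log2 units, adjusted p = 0.0196), and a coatomer subunit of Golgi vesicles held 704 and 566 in RB and 116 and 118 in W (2.42 log2 units, adjusted p = 0.00714). RPL19 held 289 and 348 in RB and 78.2 and 61.4 in W (adjusted p = 0.0198). OGDH E1, the gamma subunit of ATP synthase and AT4G19420, with no name held, were the other 3. The green tissue sum was 1672 and 1397 FPKM in W and 415 to 695 in the other forms, and its part in these differences was not tested. No locus of the 150 was called without library RB1 or without RB2, and the calls fell from 60 to 25 without W library a, 29 without W library b, 29 without DP1 and 25 without DP2. None was called with no variance trend.

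In Malcolmia the called loci were mostly higher in form P. UBQ11 held 4485 and 4742 FPKM in P and 1565 and 801 in LP (2.04 log2 units, limma adjusted p = 0.0490), and UBQ14 held 3623 and 3187 in P and 1111 and 851 in LP (1.80 log2 units, adjusted p = 0.0460). PIP1;2 held 7825 and 6817 in P and 2579 and 1902 in LP, and ARFA1D, a small GTPase of vesicle budding, held 2697 and 2353 in P and 695 and 788 in LP, with adjusted p = 0.0485 and 0.0460. The libraries of the 2 forms did not overlap for these 4 loci. P was the higher form in 30 of 33 called loci as deposited, in 8 of 34 with the same nuclear sum and in 18 of 32 with the same median of the 150 loci, and no locus was called with quantile scaling, so neither direction nor calls held. The green tissue sum was also higher in P (7028 and 5804 FPKM against 2198 and 2213), of which RCA, itself one of the 150, is a part, and its part in the differences was not tested. Without LP1, P1 or P2 no locus was called.

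**Figure D5:**
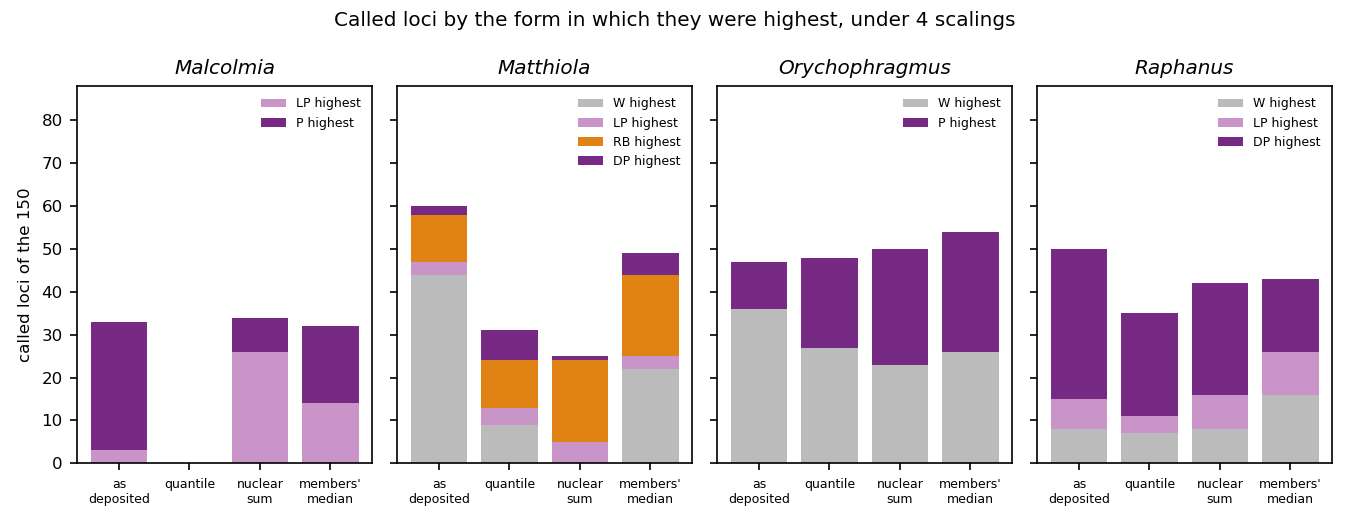
Number of the 150 loci called between forms in 4 species under 4 scalings of the libraries, with bars split by the form in which the locus was highest. The share of Matthiola W goes from 44 of 60 as deposited to 0 of 25 with the same nuclear sum. Raphanus DP goes from 35 of 50 as deposited to 17 of 43 with the same median of the 150 loci. Under that last scaling W was highest in 16, and DP was the lowest form in 20 of the 43.

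The median of all tested loci lay 0.46 log2 units above the mean of the forms in Raphanus DP as deposited and 0.13 above it with the same median of the 150 loci, and in Orychophragmus W it went from 0.08 to -0.18 with the nuclear sum. In Malcolmia P it went from -0.01 to -0.30. Over the 4 scalings, 31 of 47 calls in Orychophragmus and 24 of 50 in Raphanus kept the call and the same highest and lowest form. In Orychophragmus 20 of the 31 were highest in W and 11 in P, and every Orychophragmus locus given above with its values in W and P was among them except PI. In Raphanus 15 of the 24 were highest in DP, 6 in W and 3 in LP, and the loci given above with values and a p were all among them. In Malcolmia none of 33 did.

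In Erysimum, Iberis and Lobularia none of the 150 loci passed the test on the deposited values. In Iberis 12 were called with the replicate number as a block and 1 with the same nuclear sum, and in Lobularia 6 without library W1. In Erysimum, libraries of the same form differed by a median of 1.43 log2 units over the 150 loci in form P, against 0.10 in B, 0.39 in Y and 0.59 in O. QCR8, a subunit of complex III, held 1230.5 and 1062 FPKM in B, 888 and 1276 in O, 788 and 900.2 in Y, and 234 and 55.3 in P (adjusted p = 0.773). Its 2 P libraries lay far apart. No locus of the 150 was called with form P left out or without library P2, and 45 were called without library P1, a fit in which P2 alone stands for form P. In Iberis the protease AALP held 2553 and 3349 in PI and 424 and 309 in P (adjusted p = 0.466), and PI, the floral factor, held 2347 and 2351 in form PI and 188 and 488 in form P (adjusted p = 0.692). In Lobularia RPS15, a ribosomal protein, held 269 and 241 in P and 96.1 and 59.0 in W (adjusted p = 0.710). The forms did not overlap for these last 3 loci, and they and QCR8 were picked after their values were seen.

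On the deposited values, 36 of the 150 loci were called in no species, 56 in 1, 42 in 2, 14 in 3 and 2 in 4. Of these 190 calls, 61 held under the 4 scalings, and by those 97 loci were called in no species, 45 in 1, 8 in 2 and 0 in 3. Directions in Malcolmia and Matthiola below are on deposited values. The 14 loci called in 3 species as deposited were PIP1;2, PIP2;1, UBQ10, UBQ14, RPT3, ATMS1, KAT2, BAM1 (a plastid amylase), MT2B, RCA, PSBR, HOT5 (which breaks down nitrosoglutathione), the phosphatase WIN2 and AT4G19420. VHA-C1 and AT1G16180, which has no name held, were called in 4. VHA-C1 held 696 and 663 FPKM in Malcolmia P and 201 and 231 in LP, and 1273 and 753 in Matthiola W and 229 and 363 in RB. It held 2573 and 2312 in Orychophragmus W and 802 and 952 in P, and 1459.8 and 1290.1 in Raphanus DP and 590.5 and 686 in W. The form that was high is labelled white-violet in Malcolmia and Orychophragmus, white in Matthiola and violet in Raphanus, and in none of the 4 did the call hold under all 4 scalings. ATMS1 was highest in Orychophragmus P and Raphanus LP under the 4 scalings, and in Matthiola W as deposited, a call that did not hold under them.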

How the data were processed

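Petal libraries of 22 forms in 10 species were used as 1 FPKM table per species. The authors deposited FPKM for 34133 Arabidopsis loci (34131 in the Brassica table), and Cufflinks, Cuffdiff, TopHat and DESeq are listed, with no version, per the submitters' processing notes. The series text states that Arabidopsis served as reference; how reads on near-identical genes were shared is not given in the sources used here. FPKM as deposited hold no read depth, and tables were made per species, so forms were tested only within a species. Columns headed PI in the Erysimum table were read as form P by inference, and column 3 of that table in the rule was read as library 2 of form P. Both Matthiola W columns have the same heading, so they are named Wa and Wb by column.

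Loci whose mean reached 1 FPKM in some form were tested as log2(FPKM + 1) with limma 3.58.1 (R 4.3.3). An F test over forms used empirical Bayes with a variance trend, and p-values were adjusted by Benjamini-Hochberg over all tested loci of a species (called under 0.05). The fit was checked on simulated data with the same noise at every level and no scale differences between libraries. That check does not cover the dependence on scaling and on the variance trend reported here. Differences are between the highest and the lowest form mean on the log2(FPKM + 1) scale, which understates those of low loci.

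The 150 loci, the gene and marker lists, the tests and the names were chosen with earlier results of these data known. Gene names come from general knowledge of Arabidopsis loci, as no annotation was used here. The rule for named genes took, of the loci named in the lists, the 12 with the highest lowest-species median, the 4 on each side of the limit, the 3 highest per class, the 6 smallest and 6 largest SDs over species, and the 4 largest called differences without overlap per species. Other loci named were chosen after their values were seen. Alternatives were a pseudocount of 0.1, no filter, quantile scaling, scaling to the nuclear sum, no trend, the replicate number as a block and each library left out. Scaling to the median of the 150 loci, Erysimum without form P and Raphanus without form W were added after seeing the data.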

Additional observations from a re-analysis of the deposited data

How the results depend on the processing

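Of the 150 loci, 141 were shared when species means replaced medians, 150 with all Erysimum columns, 142 after scaling to the nuclear sum, 143 to 150 with each library left out in turn, and 109 when the second lowest species median was ranked. The calls in Malcolmia (33) fell to 0 with a pseudocount of 0.1, with no filter, with quantile scaling and with no variance trend. Those in Matthiola (60) became 31 with quantile scaling, 25 with the nuclear sum and 0 with no trend, those in Orychophragmus (47) 0 with no trend, and those in Raphanus (50) 11. In Iberis 1 locus was called with the nuclear sum. With each library left out, the calls ran in Raphanus over 26 to 55, in Orychophragmus 0 to 36, in Matthiola 0 to 42, in Malcolmia 0 to 27, in Lobularia 0 to 6 (6 without W1), in Iberis 0 to 0 and in Erysimum 0 to 45 (45 without P1). In such fits the lone library is assumed to vary like the others. With the same median of the 150 loci, 32 were called in Malcolmia, 49 in Matthiola, 54 in Orychophragmus and 43 in Raphanus, of which 19, 39, 37 and 33 were among those called as deposited. Without form W, 35 were called in Raphanus. For 16 named differences over 197 alternatives, 113 kept their call and 84 lost it with the same direction, and none turned. The cause of these changes was not tested.

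Deviations of same-numbered libraries correlated at -0.05 to 0.37 over the form pairs, with the highest value for Erysimum O and Y. Over the 150 loci some libraries were nearest to a same-numbered library of another form. Iberis P1 reached 0.921 with PI1 against 0.890 with P2, and Erysimum Y1 0.909 with O1 against 0.904 with Y2. Others were not, as Erysimum O2 was nearest to B1 (0.929). Whether libraries of the same number share a batch was not tested. With the number as a replicate block, the calls became 12 in Iberis, 86 in Orychophragmus and 4 in Raphanus, and stayed within 1.5 times of the count in Erysimum (0), Lobularia (0) and Malcolmia (31). No paired analysis was possible for Matthiola because its W columns carry no number. In Raphanus and Lobularia 41 and 32 of the 150 loci lay under 10 times the level of loci seen in a single library, the highest counts. That level was 13.8 FPKM in Raphanus, the highest of the species, but 5.45 FPKM in Lobularia, where the median of the 150 loci was lowest (122 FPKM). Read depth itself is not given.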

Other observations

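Some of the 150 loci with no name held here were as high as the named ones. AT1G67785 had the highest median of the 150 in Aubrieta (13252 FPKM) and 61.9 FPKM in Brassica as its lowest. The RNA polymerase subunit NRPB12, shared by the nuclear polymerases, was the highest of the 150 in Raphanus (19029 FPKM) and had 157 FPKM in Orychophragmus at its lowest. Both were picked after their values were seen. The wax exporter CER5, which carries cuticle lipids out of epidermal cells, ran from 72.6 FPKM in Iberis to 999 FPKM in Eruca. None of the 33 listed cell wall and surface loci was a member, and only 5 of them had a median above 0 in every species. ELIP1, a plastid protein known from light stress in Arabidopsis, ran from 60.5 FPKM in Lobularia to 1209.9 FPKM in Malcolmia, and in Matthiola it held 1056 and 932 FPKM in W and 164 and 164 in RB (limma adjusted p = 0.00407), a call that did not hold under the 4 scalings.

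Over the 150 loci, 7 of 8 Erysimum libraries were nearest to another library of their own species (0.909 to 0.990). Among libraries of other species, these 7 were nearest to a Malcolmia library. The exception was library 2 of form P. The nearest library of another species to Orychophragmus W1, W2, P1 and P2 was that Erysimum library, over the 150 loci (0.802, 0.828, 0.653 and 0.617) as over 2041 other loci (0.797, 0.804, 0.635 and 0.636).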
